A study of Mus musculus with 9 samples.

Results

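The genes described here are 34 members of the machinery that copies and divides the genome, taken by symbol from a table of 49510 genes and measured in regulatory T cells (Tregs) of 3 organs of mice with an injured heart. Of the members, 13 act in DNA replication (the 6 helicase subunits Mcm2 to Mcm7, Rrm1, Rrm2, Tyms, Tk1, Pcna, Uhrf1 and E2f1) and 21 act in mitosis (Ccna2, Ccnb1, Ccnb2, Cdk1, Bub1, Bub1b, Cdc20, Ube2c, Aurka, Aurkb, Plk1, Birc5, Cenpe, Cenpf, Kif11, Kif20a, Tpx2, Nusap1, Stmn1, Mki67 and Top2a). All 34 passed the filter on low counts, so none was left out of the tests, and 32 had at least 1 count in each of the 9 libraries. The animals were Foxp3-GFP mice of 8 weeks, whose green reporter marks cells that transcribe Foxp3, the transcription factor of the Treg lineage. Every group came from mice 3 days after ischemia/reperfusion (I/R) injury, in which blood flow to the heart is stopped and restored, and no uninjured group was analysed here. The 3 groups are Tregs of the heart, of the spleen and of the mediastinal lymph node (MLN) that drains the heart, with 3 libraries each. Per the labels' protocols, cells passed a magnetic bead sort followed by a flow cytometry sort, and cDNA was made with a kit for very low RNA input. The comparisons address what sets heart Tregs apart from Tregs of lymphoid organs after injury, with the MLN and the spleen as the lymphoid pair. The labels name no animal or pool behind a library, so the p-values cover the spread between libraries only, which may be in part technical.

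A dividing cell first makes deoxynucleotides and opens its replication origins with the ring-shaped MCM helicase, and then condenses, aligns and separates the copied chromosomes under the kinase Cdk1 and its cyclins. Genes of the first step are switched on before S phase, largely by E2F factors, while genes of the second step are switched on in G2, largely through promoter elements bound by NF-Y and by the MuvB complexes. Tregs divide in lymphoid organs and in injured tissue, and the transcripts of these genes are used as readouts of how much of a cell population is in cycle. In sorted bulk samples, fewer cycling cells and less RNA of these genes per cell cannot be told apart.

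The promoters show which of these elements the members carry. RefSeq promoter windows on GRCm38.p6, from 250 bases before to 50 bases after the gene start, matched 28 of the 34 members, with 30 windows in all. Of the members with a window, 5 are printed below up to the gene start, in the sense of the gene: Mcm5 and Mcm6, which were highest in the third spleen library, and Cdk1, Cdc20 and Ube2c, for which every heart library lay below every MLN library. Capitals mark TTTGAA, the core of the cell cycle homology element of mitotic genes, TTTCCCGC, TTTGGCGC and TTTCGCGC, which are E2F motifs, and CCAAT, the NF-Y box. All were searched on both strands, so that TTTGAA on the other strand reads TTCAAA and CCAAT reads ATTGG, and the E2F motifs TTTCGCGC and TTTGGCGC share bases where they face each other in Mcm5 and Mcm6.
Mcm5 (chr8:75109259-75109508, + strand): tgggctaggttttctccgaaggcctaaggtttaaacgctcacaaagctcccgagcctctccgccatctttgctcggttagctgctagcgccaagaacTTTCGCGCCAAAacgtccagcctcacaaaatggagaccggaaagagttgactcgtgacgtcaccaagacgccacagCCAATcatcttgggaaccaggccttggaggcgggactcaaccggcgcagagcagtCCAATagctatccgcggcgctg
Mcm6 (chr1:128359706-128359955, - strand): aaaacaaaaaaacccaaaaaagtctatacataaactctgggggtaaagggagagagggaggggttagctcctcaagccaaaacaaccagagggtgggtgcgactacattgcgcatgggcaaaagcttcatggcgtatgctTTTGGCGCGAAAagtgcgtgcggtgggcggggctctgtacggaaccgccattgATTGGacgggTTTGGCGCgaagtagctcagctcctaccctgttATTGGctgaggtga
Cdk1 (chr10:69352913-69353162, - strand): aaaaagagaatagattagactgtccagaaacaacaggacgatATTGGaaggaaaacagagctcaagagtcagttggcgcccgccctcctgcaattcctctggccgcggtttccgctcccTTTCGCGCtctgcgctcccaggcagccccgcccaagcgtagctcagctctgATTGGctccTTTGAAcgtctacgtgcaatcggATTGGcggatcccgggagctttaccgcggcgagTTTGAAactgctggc
Cdc20 (chr4:118437344-118437593, - strand): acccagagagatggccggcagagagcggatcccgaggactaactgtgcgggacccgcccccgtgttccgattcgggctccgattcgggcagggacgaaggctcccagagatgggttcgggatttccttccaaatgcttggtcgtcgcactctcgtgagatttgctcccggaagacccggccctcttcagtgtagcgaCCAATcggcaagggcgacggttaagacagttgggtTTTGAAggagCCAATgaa
Ube2c (chr2:164769679-164769928, + strand): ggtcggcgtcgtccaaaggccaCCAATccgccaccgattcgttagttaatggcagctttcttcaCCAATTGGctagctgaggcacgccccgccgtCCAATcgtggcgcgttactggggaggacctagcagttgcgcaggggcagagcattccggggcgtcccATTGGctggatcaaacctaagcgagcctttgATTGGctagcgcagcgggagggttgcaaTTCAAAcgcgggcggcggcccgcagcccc
Mcm5 and Mcm6 hold E2F motifs and CCAAT boxes and no TTTGAA, whereas Cdc20 and Ube2c hold TTTGAA and CCAAT and no E2F motif of these 3. Cdk1 holds all 3 kinds. Mcm2 and Mcm7 were also highest in the third spleen library, and Nusap1 was also lower in every heart than in every MLN library. They are not printed, and they do not all follow this contrast. Mcm2 holds TTTGAA and CCAAT and no E2F motif of these 3. Mcm7 holds CCAAT in both windows and E2F motifs in the upstream window alone, and Nusap1 holds none of the searched letters.

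Counted over all 30 member windows, the printed ones included, TTTGAA was in 11 of the 16 windows of mitosis members (68.75%), in 1 of the 14 windows of replication members (7.143%, that of Mcm2), and in 17.89% of all 32851 windows of the same length. An E2F motif was in 5 of 14 replication windows (35.71%, those of Mcm3, Mcm5, Mcm6, Mcm7 and Uhrf1), so most replication windows held none, in 1 of 16 mitosis windows (6.25%, Cdk1) and in 1.845% of all windows. CCAAT was in 78.57% of replication windows, 87.5% of mitosis windows and 37.41% of all windows. The windows of Nusap1, Birc5, E2f1, Tk1 and Tyms held none of the searched letters. That of E2f1 (chr2:154569377-154569676, - strand) lay wholly inside the annotated gene (154559407 to 154569892). It therefore does not show the bases at the annotated start of E2f1. The Mcm7 windows and the downstream Uhrf1 window also lay inside the annotated genes. A match is a description of the sequence, and no binding was measured here.

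**Figure D1:**
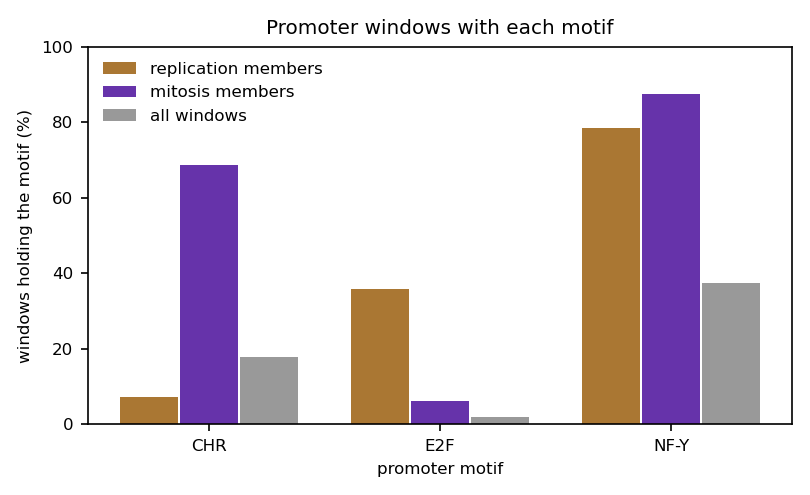
Share of RefSeq promoter windows (y axis, percent) that hold TTTGAA (labelled CHR), any of 3 E2F motifs or CCAAT (labelled NF-Y), for replication members (14 windows), mitosis members (16 windows) and all windows (32851). TTTGAA was in 68.75% of mitosis windows and 7.143% of replication windows, and E2F motifs in 6.25% and 35.71%.

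Libraries held 156194012 to 267520538 counts, so counting error is small beside the spread between libraries of an organ. Levels are given as CPM, counts scaled to a library total of 1000000 after adjusting totals by the trimmed mean of M-values (TMM). In each organ 1 library stood apart by its scaling factor (1.24 in spleen 3, 1.17 in MLN 3 and 1.11 in heart 2) and by its share of B2m, an abundant gene of antigen presentation (1.20%, 1.55% and 1.25%, where the other 6 libraries had 2.38% to 2.71%). The median log2 change over all members is given with and without these 3 libraries. T cell genes were present in every library, with a summed level of 14 markers of 7327 to 9081, 7573 to 9734 and 3432 to 5144 CPM in spleen, MLN and heart. The 12 Treg markers summed to 3457 to 3934, 3119 to 4955 and 1407 to 1875 CPM in the same order. Foxp3 itself was at 187 CPM in spleen 3, at 31.2 to 46.3 CPM in the other spleen and MLN libraries, and at 8.77, 38 and 0.24 CPM in heart 1, 2 and 3, so it was near 0 in 1 heart library. Genes of other cells were also present: the sum of 15 macrophage and monocyte markers was 6820 to 12805 CPM in the heart, and 1164 to 2709 and 341 to 843 CPM in spleen and MLN. The sum of 10 fibroblast markers was 2669 to 21324 CPM in the heart and at most 16.4 CPM in the lymphoid organs, and that of 10 B cell markers was 3818 to 5116, 865 to 2734 and 61.8 to 125.1 CPM in spleen, MLN and heart. The sum of 8 plasma cell markers was 2694 to 8620, 337 to 987 and 65.4 to 227 CPM in spleen, MLN and heart. In the heart 8 neutrophil markers summed to 686 to 3863 CPM, against at most 30.4 CPM in the lymphoid organs. The 11 mast cell and innate lymphoid markers summed to 279 to 614, 363 to 380 and 633 to 7478 CPM in spleen, MLN and heart. The part of these other cells in the members' levels was not tested.

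Transcripts of every member were counted in all 3 organs 3 days after injury, and edgeR called no member between organs after adjustment over all genes. Summed over the 34 members, the level was 1877 ± 1037 CPM in the spleen, 2614 ± 777 CPM in the MLN and 1994 ± 120.3 CPM in the heart (mean ± SD, n = 3 each), which is 0.134% to 0.321% of the counts of a library. By library the sum was 3050, 1497 and 1084 CPM in spleen 1, 2 and 3, 3298, 2774 and 1769 CPM in MLN 1, 2 and 3, and 2033, 2090 and 1859 CPM in heart 1, 2 and 3. The heart libraries lay close together and inside the range of both lymphoid organs. For heart against spleen, edgeR's quasi-likelihood test with Benjamini-Hochberg adjustment called 0 of 34 members, where it called 0.789% of the 16609 genes tested (0.614% higher and 0.175% lower). For heart against MLN it called 0 of 34 members and 1.38% of all genes (1.1% higher and 0.283% lower), and for MLN against spleen 0 members and 0% of all genes.

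These counts of 0 rest on few libraries with a wide spread. At an unadjusted p below 0.05, edgeR had 1 member higher in heart than spleen (Bub1b, where 9.01% of all genes were higher and 4.62% lower), 0 members for heart against MLN (10.3% and 5.23%), and 2 members higher in MLN than spleen (Bub1b and Stmn1, where 2.4% of all genes were higher and 3.35% lower). DESeq2 called 1, 0 and 1 member in the same order of comparisons, each time Bub1b, and limma-voom called 0 in each. The 95% interval of a member's log2 change had a median width of 3.76 in the heart against the spleen, and it included a 4-fold difference in 1 direction or the other for 25, 25 and 24 of the 34 members in the 3 comparisons. For these members a difference of that size lay within the error.

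**Figure D2:**
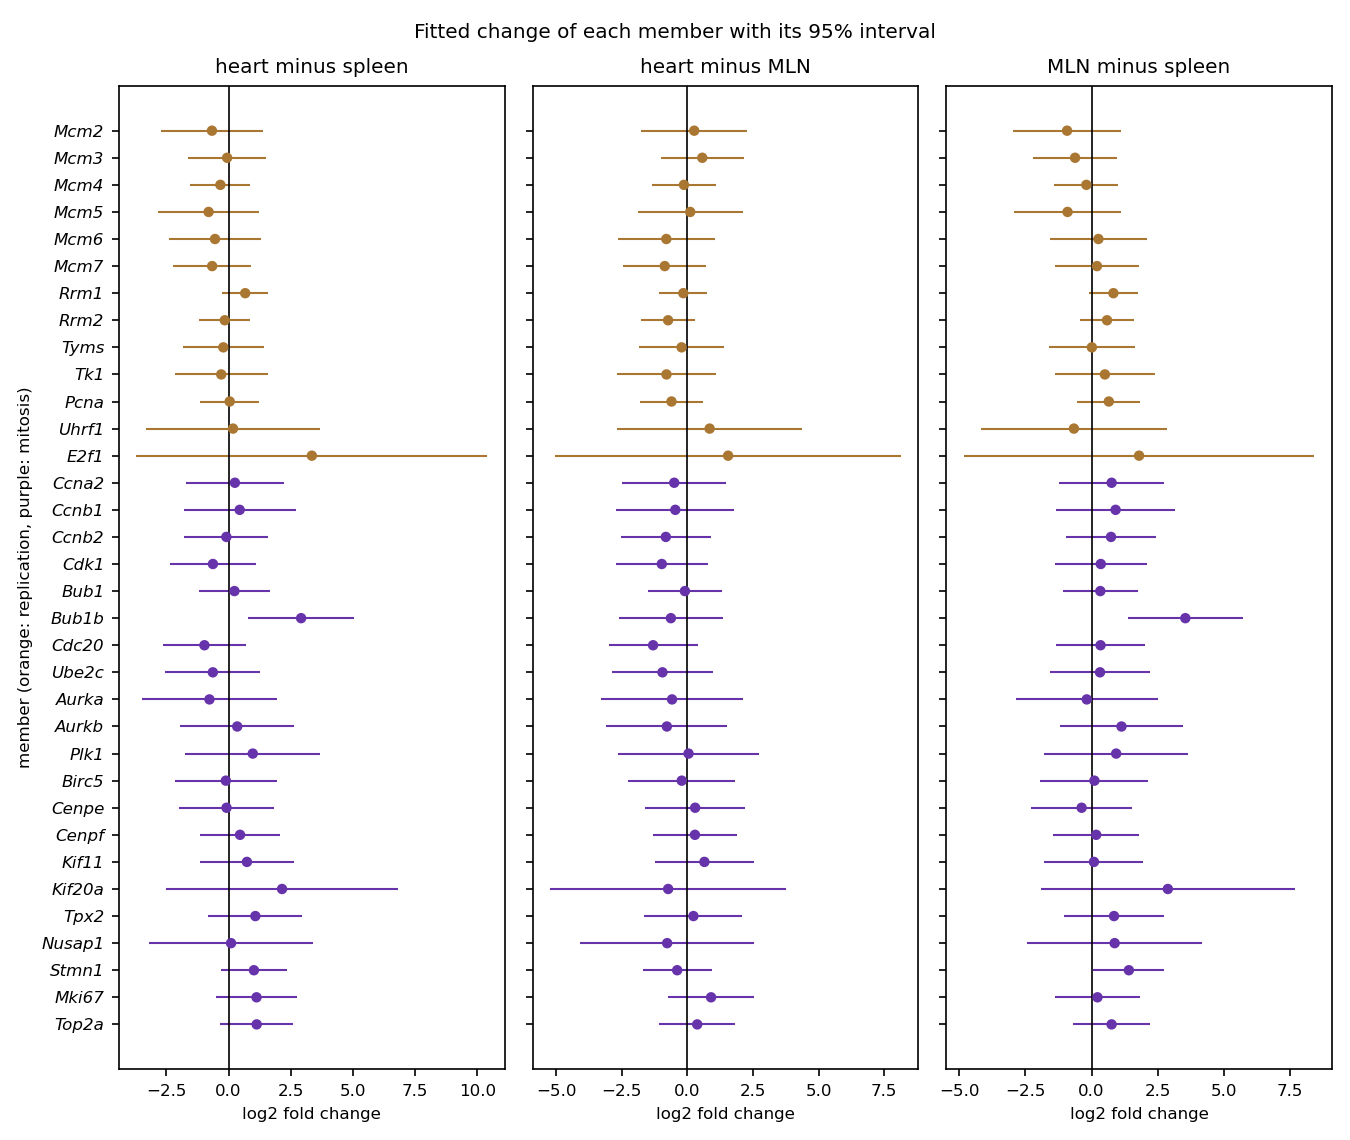
Fitted log2 fold change (x axis) of each of the 34 members (y axis) in the 3 comparisons, with its 95% interval from the edgeR fit, replication members in orange and mitosis members in purple. The intervals of Bub1b lie above 0 in heart minus spleen and in MLN minus spleen, that of Stmn1 lies just above 0 in MLN minus spleen, and the others include 0.

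Of the 21 mitosis members, 13 had their highest mean in the MLN, 6 in the heart (Plk1, Cenpf, Kif11, Tpx2, Mki67 and Top2a) and 2 in the spleen (Aurka and Cenpe). Of the 13 replication members, 7 had it in the MLN, 4 in the spleen (Mcm2, Mcm3, Mcm4 and Mcm5) and 2 in the heart (Uhrf1 and E2f1). None of these orders passed the test. The median log2 change over the 34 members was 0.34 for the MLN against the spleen, with 27 members above 0 and 7 below, beside a median of 0 over all genes tested. It was -0.31 for the heart against the MLN, with 12 members above 0 and 22 below (all genes 0.12), and 0.07 for the heart against the spleen, with 18 above and 16 below (all genes 0.02). In the MLN against the spleen 19 of the 21 mitosis members lay above 0, 12 of 21 without spleen 3 and 14 without the 3 libraries that stood apart. For heart against spleen 14 of 21 lay above 0, 20 without spleen 1, 10 without spleen 3 and 7 without the 3 libraries that stood apart. The mitosis members alone had medians of 0.73 (MLN against spleen), -0.46 (heart against MLN) and 0.35 (heart against spleen), and the replication members 0.20, -0.16 and -0.21 in the same order. Comparisons share the libraries of an organ, so these values are not independent of each other. Without the 3 libraries that stood apart, the medians over all members were 0.47, -0.89 and -0.32, so the sign of the heart against the spleen turned. Scaled to library totals alone, the median of the heart against the spleen was -0.13, while the median over all genes was -0.24.

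Few members had groups that did not overlap. In the MLN against the spleen 4 of 34 members (11.8%) did not overlap, all higher in the MLN, where 9.08% of all genes did not (4.52% higher and 4.56% lower). For heart against MLN there were 5 (14.7%), Mki67 higher and Cdk1, Cdc20, Ube2c and Nusap1 lower in the heart, beside 26.2% of all genes (14.9% higher and 11.2% lower). For heart against spleen there was only Bub1b, which was higher (2.94%), beside 19.3% of all genes (12.4% higher and 6.9% lower). Taken in either direction, the members' share was near that of all genes in the MLN against the spleen (11.8% and 9.08%). In both comparisons of the heart it was below the share of all genes in either direction.

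**Figure D3:**
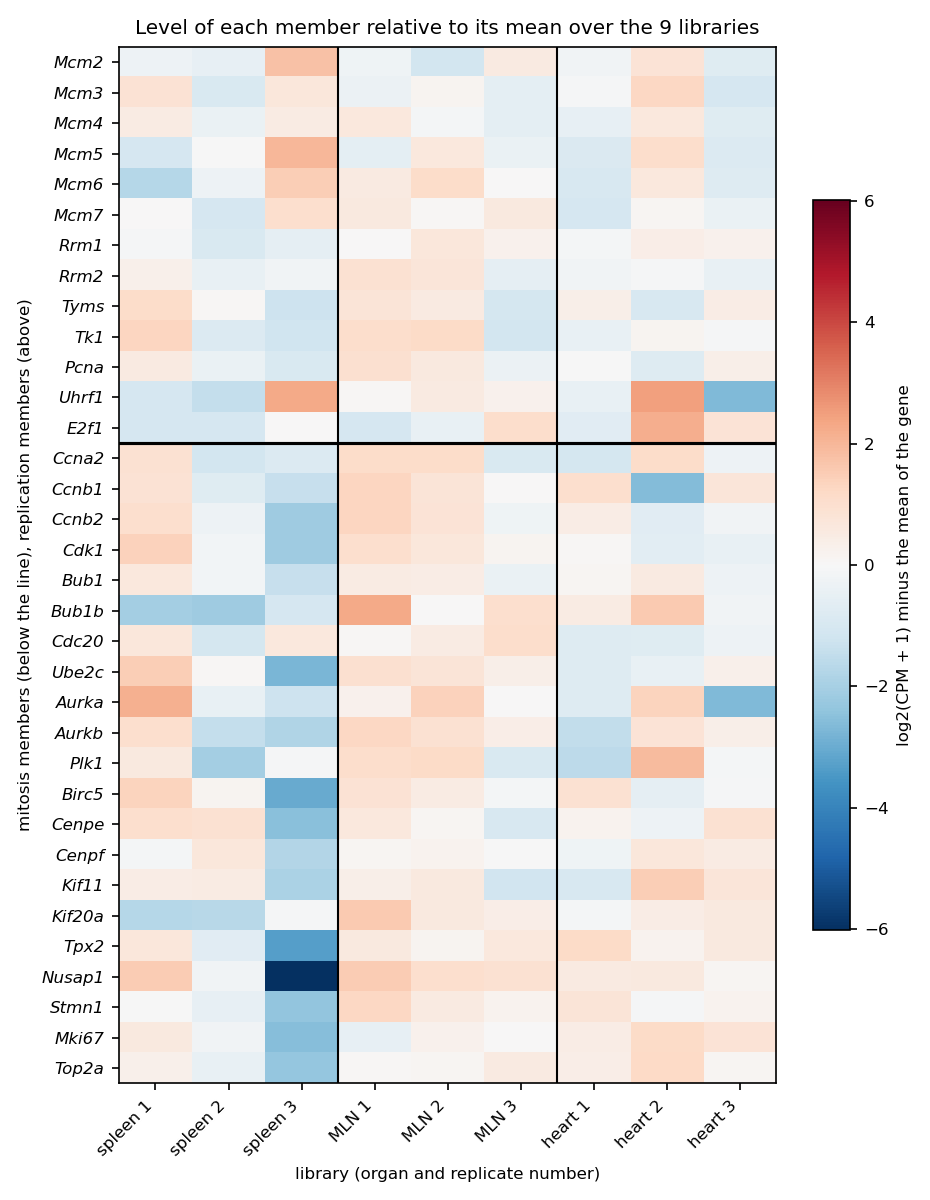
Level of each member (y axis) in each library (x axis) as log2(CPM + 1) minus the gene's mean over the 9 libraries, replication members above the line and mitosis members below it. Spleen 3 is high for the MCM subunits and low for most mitosis members, and heart 2 is high for the MCM subunits.

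The MCM subunits form the ring-shaped helicase that unwinds DNA at the fork, and their levels differed by up to 9.52-fold between libraries of 1 organ (Mcm6 in the spleen). The levels of Mcm5 were 18.3, 36.5 and 155 CPM in the 3 spleen libraries in order, 24.9, 58.9 and 27.9 CPM in the MLN libraries and 20.1, 79.3 and 20.8 CPM in the heart libraries. Spleen 3 and heart 2 were each the highest of their organ, and the organs overlapped. For Mcm6, libraries 1, 2 and 3 had 27.7, 75.9 and 264 CPM in the spleen, 137, 207 and 95.7 CPM in the MLN and 48.6, 149 and 54 CPM in the heart. Here too spleen 3 and heart 2 were the highest of their organs, and every MLN library lay above the other libraries of the spleen and the heart. Mcm2 was at 8.35, 7.42 and 39.3 CPM in spleen 1, 2 and 3, at 8.79, 4.41 and 15.8 CPM in MLN 1, 2 and 3, and at 9.01, 19.6 and 6.04 CPM in heart 1, 2 and 3. The levels of Mcm3 were 54.8, 15.6 and 48 CPM in the 3 spleen libraries in order, 23.5, 33.5 and 19.8 CPM in the MLN libraries and 28.1, 71.3 and 14.3 CPM in the heart libraries. Mcm2 was high in spleen 3 alone of the spleen libraries, while Mcm3 had similar levels in spleen 1 and spleen 3. Mcm4 ranged from 34.2 to 89.2 CPM over the 9 libraries and Mcm7 from 5.94 to 27.5 CPM. Spleen 3 had the highest spleen level for 5 of the 6 subunits, and heart 2 had the highest heart level for all 6.

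No MCM subunit was called in any comparison. For heart against spleen all 6 had a log2 change below 0, with a median of -0.60, from -0.80 (SE 0.89, Mcm5) to -0.06 (SE 0.69, Mcm3), and edgeR adjusted p from 0.868 to 0.997. Without spleen 3, 5 of the 6 lay above 0 and the median was 0.33, whereas without spleen 3, MLN 3 and heart 2 together 0 of the 6 lay above 0 and the median was -0.37. The median was -0.41 in the MLN against the spleen, with 2 of 6 above 0, and with 4 of 6 above 0 it was 0.37 without spleen 3 and 0.39 without the 3 libraries that stood apart. For heart against MLN it was -0.01 with 3 of 6 above 0, it turned to 0.09 with DESeq2's size factors, and it was -0.97 without the 3 libraries that stood apart.

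Enzymes of nucleotide supply overlapped between the organs, except for Rrm1 in the MLN and the spleen. Rrm1 and Rrm2 encode the large and small subunits of ribonucleotide reductase, which makes deoxynucleotides. For Rrm1, libraries 1, 2 and 3 had 41.7, 22.2 and 29.8 CPM in the spleen, 43.3, 70.1 and 52.5 CPM in the MLN and 39.2, 57.8 and 51.7 CPM in the heart. Every MLN library lay above every spleen library, by a log2 change of 0.83 (SE 0.40, edgeR adjusted p = 0.839), and the heart overlapped both. Rrm2 was at 72.6, 43.6 and 50.5 CPM in spleen 1, 2 and 3, at 112, 98.2 and 40.3 CPM in MLN 1, 2 and 3, and at 50.6, 56.5 and 42.8 CPM in heart 1, 2 and 3. Levels of Rrm2 overlapped in all 3 pairs of organs. Tyms, which makes thymidylate, ranged from 26 to 136 CPM, and Tk1, the thymidine salvage kinase, from 10.6 to 63.5 CPM. Both had their highest level of all 9 libraries in spleen 1 and their lowest in spleen 3, whereas Mcm5 and Mcm6 were lowest in spleen 1 and highest in spleen 3.

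Pcna, Uhrf1 and E2f1 differed widely in level. The levels of Pcna were 189, 98.7 and 67.3 CPM in the 3 spleen libraries in order, 257, 198 and 102 CPM in the MLN libraries and 126, 76 and 164 CPM in the heart libraries. Pcna, the sliding clamp of DNA polymerases, was highest in MLN 1 and lowest in spleen 3, and all organs overlapped. For Uhrf1, libraries 1, 2 and 3 had 3.28, 2.22 and 41 CPM in the spleen, 8.21, 11.6 and 9.45 CPM in the MLN and 5.33, 46.8 and 0.403 CPM in the heart. Uhrf1, which brings the maintenance methyltransferase to newly copied DNA, was high in spleen 3 and heart 2 and low in the other libraries of both organs, a 116.4-fold range within the heart. E2f1 was at 0, 0 and 1.06 CPM in spleen 1, 2 and 3, at 0, 0.486 and 3.19 CPM in MLN 1, 2 and 3, and at 0.241, 7.99 and 2.54 CPM in heart 1, 2 and 3. E2f1, the transcription factor that drives entry into S phase, had no count in spleen 1, spleen 2 and MLN 1, where a count of 0 allows up to 3 counts, and its highest level was in heart 2. Its log2 change of the heart against the spleen was 3.34 with an SE of 3.09 (edgeR adjusted p = 0.824).

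Cdk1 and Ccnb2 were lowest in spleen 3, and all heart libraries had less Cdk1 than the MLN. Cdk1 is the kinase that starts mitosis, and cyclins A and B activate it. The levels of Cdk1 were 151, 51 and 12 CPM in the 3 spleen libraries in order, 114, 93 and 64.6 CPM in the MLN libraries and 60.3, 36.2 and 41.4 CPM in the heart libraries. Every heart library lay below every MLN library (log2 change -0.98, SE 0.76, edgeR adjusted p = 0.666), while spleen 1 and spleen 3 were the highest and lowest of all 9. For Ccnb2, libraries 1, 2 and 3 had 478, 192 and 52.5 CPM in the spleen, 588, 414 and 200.3 CPM in the MLN and 326, 146 and 207 CPM in the heart. Spleen 3 was lowest again, and the organs overlapped. Ccnb1 was at 38.3, 11.9 and 7.21 CPM in spleen 1, 2 and 3, at 51.3, 35.8 and 20.6 CPM in MLN 1, 2 and 3, and at 41.7, 2.52 and 34 CPM in heart 1, 2 and 3. In Ccnb1 it was heart 2 that had the lowest level. Ccna2 ranged from 9.98 to 50.4 CPM, with heart 2 near the highest level of the other organs.

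Among genes of the spindle checkpoint and the anaphase-promoting complex, Bub1b had its lowest mean in the spleen, and Cdc20 and Ube2c had theirs in the heart. Bub1b (ENSMUSG00000040084, chromosome 2, 118598211 to 118641591, mm10) encodes BubR1, a checkpoint kinase-like protein that holds back the anaphase-promoting complex until chromosomes are attached. The levels of Bub1b were 1.3, 1.09 and 3.7 CPM in the 3 spleen libraries in order, 44.4, 8.62 and 18 CPM in the MLN libraries and 12, 26.8 and 7.13 CPM in the heart libraries. Every spleen library lay below every MLN and heart library. The log2 change was 3.54 in the MLN against the spleen (SE 0.95, edgeR adjusted p = 0.839) and 2.91 in the heart against the spleen (SE 0.93, edgeR adjusted p = 0.181). DESeq2 called both differences (adjusted p = 0.00151 and 0.00699), and 0 of the 9 edgeR fits that left out 1 library called either. Between heart and MLN the log2 change was -0.63 (SE 0.87) and the libraries overlapped.

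For Cdc20, libraries 1, 2 and 3 had 14.6, 3.6 and 14 CPM in the spleen, 9.05, 12.6 and 18.9 CPM in the MLN and 4.58, 4.84 and 6.97 CPM in the heart. Cdc20 activates the anaphase-promoting complex, and all 3 heart libraries were below all 3 MLN libraries (log2 change -1.31, SE 0.74, edgeR adjusted p = 0.470). Ube2c was at 375, 144 and 19 CPM in spleen 1, 2 and 3, at 267, 233 and 172 CPM in MLN 1, 2 and 3, and at 77.9, 100.2 and 169 CPM in heart 1, 2 and 3. Ube2c is the ubiquitin-conjugating enzyme of that complex, and the heart was below the MLN in every library (log2 change -0.95, SE 0.84, edgeR adjusted p = 0.722). Spleen 3 had the lowest Ube2c level of all libraries and spleen 1 the highest, a 19.8-fold range within 1 organ. Bub1, the partner kinase of the checkpoint, ranged only from 7.66 to 34.5 CPM.

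The mitotic kinases and the passenger complex overlapped between the organs, and their summed level had a coefficient of variation of 101% in the spleen, 32.1% in the MLN and 27.4% in the heart. The levels of Aurka were 108, 17.2 and 9.62 CPM in the 3 spleen libraries in order, 29, 65.5 and 24.3 CPM in the MLN libraries and 13.5, 62.7 and 2.93 CPM in the heart libraries. Aurka, which matures centrosomes, was highest in spleen 1 and lowest in heart 3. For Birc5, libraries 1, 2 and 3 had 241, 106 and 10.4 CPM in the spleen, 169, 130.5 and 85.5 CPM in the MLN and 179, 63.9 and 88.2 CPM in the heart. Birc5, which encodes survivin of the chromosomal passenger complex, was lowest in spleen 3, below the 63.9 CPM of the next library. Aurkb, the kinase of the same complex, ranged from 2.43 to 27.7 CPM, and Plk1, which acts at centrosomes and kinetochores, from 1.37 to 35.8 CPM. The highest Plk1 level was in heart 2 and the lowest in spleen 2. None of these 4 genes had organs that did not overlap.

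Of the 7 spindle, kinesin and kinetochore genes, all but Kif20a had their lowest level of the 9 libraries in spleen 3. Nusap1 was at 209.6, 63 and 0.131 CPM in spleen 1, 2 and 3, at 214, 148 and 137 CPM in MLN 1, 2 and 3, and at 107, 108 and 77.6 CPM in heart 1, 2 and 3. Nusap1 (ENSMUSG00000027306, chromosome 2, 119618298 to 119651244), which bundles spindle microtubules, lay far below all other libraries in spleen 3, where 38 reads were counted against 13338 to 44534 elsewhere. The heart lay below the MLN in every library (log2 change -0.77, SE 1.45, edgeR adjusted p = 0.903). The levels of Stmn1 were 184, 134 and 35.8 CPM in the 3 spleen libraries in order, 442, 277 and 222 CPM in the MLN libraries and 321, 179 and 218 CPM in the heart libraries. Stmn1 (ENSMUSG00000028832, chromosome 4, 134468320 to 134473843), which takes microtubules apart, was higher in every MLN library than in any spleen library (log2 change 1.41, SE 0.59, edgeR adjusted p = 0.839). For Tpx2, libraries 1, 2 and 3 had 111, 41.6 and 5.86 CPM in the spleen, 101, 77.3 and 106 CPM in the MLN and 150.5, 79.5 and 103 CPM in the heart. Tpx2, the activator of Aurora A on the spindle, was lowest in spleen 3 and highest in heart 1.

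Kif20a was at 0, 0.0189 and 2.14 CPM in spleen 1, 2 and 3, at 8.69, 3.91 and 3.34 CPM in MLN 1, 2 and 3, and at 2.08, 3.47 and 4.02 CPM in heart 1, 2 and 3. Kif20a, a kinesin of cytokinesis, had no count in spleen 1 and 4 reads in spleen 2, and every MLN library was above every spleen library (log2 change 2.88, SE 2.10, edgeR adjusted p = 1). Kif11, the kinesin that pushes spindle poles apart, ranged from 11.3 CPM in spleen 3 to 127 CPM in heart 2. Cenpe and Cenpf, proteins of the outer kinetochore, ranged from 8.78 to 110.3 CPM and from 3.69 to 24.8 CPM, and both were lowest in spleen 3. No comparison called any of these 7 genes.

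Mki67 and Top2a, common markers of cycling cells, had their lowest mean in the spleen and their highest in the heart. The levels of Mki67 were 57.5, 33 and 5.64 CPM in the 3 spleen libraries in order, 26.9, 46.6 and 38.6 CPM in the MLN libraries and 52.7, 86.8 and 69.6 CPM in the heart libraries. Mki67 (ENSMUSG00000031004, chromosome 7, 135689784 to 135716361) encodes Ki-67, which coats mitotic chromosomes, and every heart library was above every MLN library (log2 change 0.90, SE 0.72, edgeR adjusted p = 0.676). For Top2a, libraries 1, 2 and 3 had 70.8, 40.7 and 10.5 CPM in the spleen, 60.5, 62.5 and 83.1 CPM in the MLN and 76, 130.0 and 60.6 CPM in the heart. Top2a, which untangles DNA, overlapped between the organs (log2 change 1.13, SE 0.64, for the heart against the spleen, edgeR adjusted p = 0.543). Spleen 3 was the lowest library for both genes. Neither difference passed the test, and Mki67 was the only member to lie above the MLN in all heart libraries, while Cdk1, Cdc20, Ube2c and Nusap1 lay below it.

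**Figure D4:**
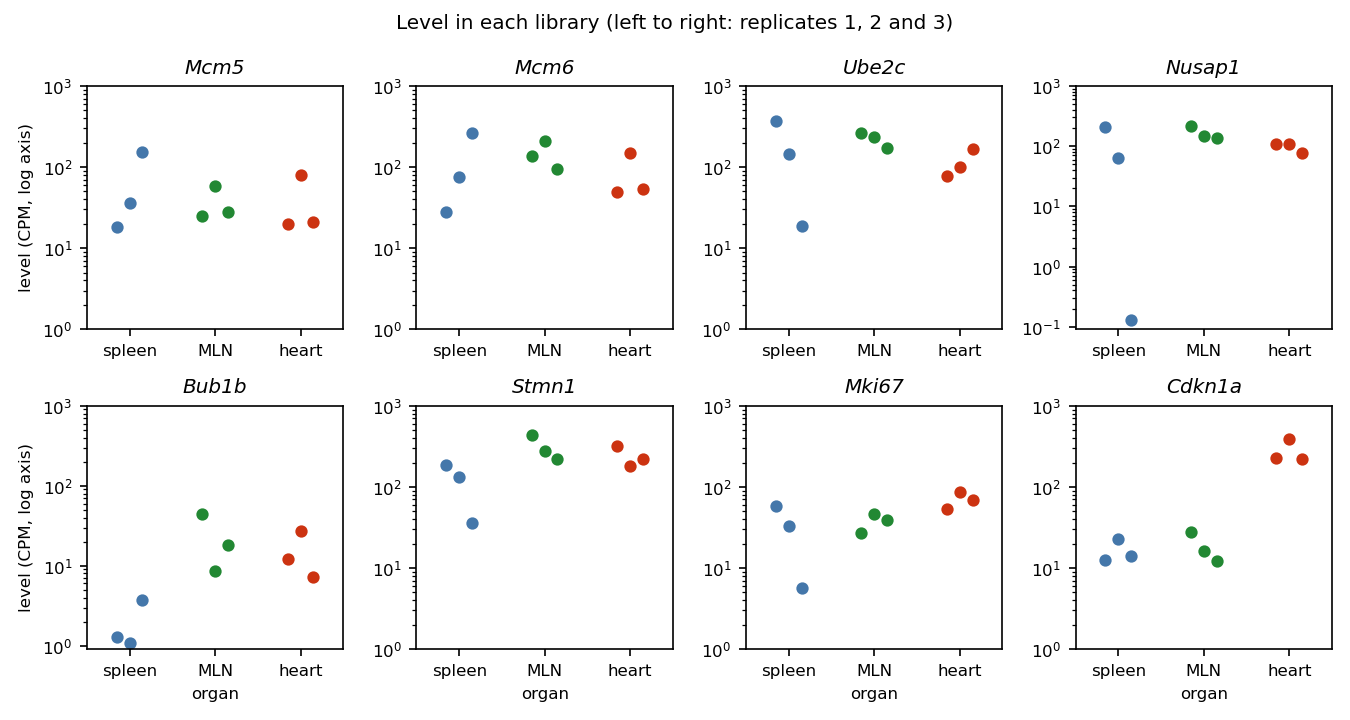
Level (y axis, CPM, log axis) of 7 members and of the CDK inhibitor Cdkn1a in each library by organ (x axis), with replicates 1, 2 and 3 from left to right. Bub1b is lowest in the 3 spleen libraries, Nusap1 and Ube2c are lowest in spleen 3 where Mcm5 and Mcm6 are highest, and Cdkn1a is above 220 CPM only in the heart.

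The balance of replication to mitosis transcripts was alike in 8 libraries and different in 1. The 13 replication members summed to 710, 431 and 841 CPM in spleen 1, 2 and 3, to 887, 899 and 466 CPM in the MLN libraries, and to 472, 728 and 510 CPM in the heart libraries. The 21 mitosis members summed to 2340, 1065 and 243 CPM in spleen 1, 2 and 3, to 2411, 1876 and 1303 CPM in the MLN, and to 1561, 1362 and 1348 CPM in the heart. Replication members thus took 23.2% to 34.8% of the members' sum in 8 libraries and 77.6% in spleen 3. The ratio of both sums was 3.46 in spleen 3 and 0.302 to 0.534 in the others.

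In spleen 3, 7 of 13 replication members, 5 of them MCM subunits, had the highest level of the spleen libraries, and 16 of 21 mitosis members had the lowest. Spleen 1 was highest for 17 of the 21 mitosis members. In the MLN, library 3 was lowest for 16 of 21 mitosis members and 7 of 13 replication members, so there both groups were low together. In the heart, library 2 was highest for 11 of 13 replication members and 11 of 21 mitosis members. Beside these values, spleen 3 also had the lowest sum of 9 mitochondrially encoded genes (2373 CPM against 3287 to 14803 CPM elsewhere), the highest Foxp3 and, in the spleen, the highest macrophage marker sum (2709 CPM against 1164 and 1662 CPM). The part of these differences between libraries in the members' levels was not tested.

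**Figure D5:**
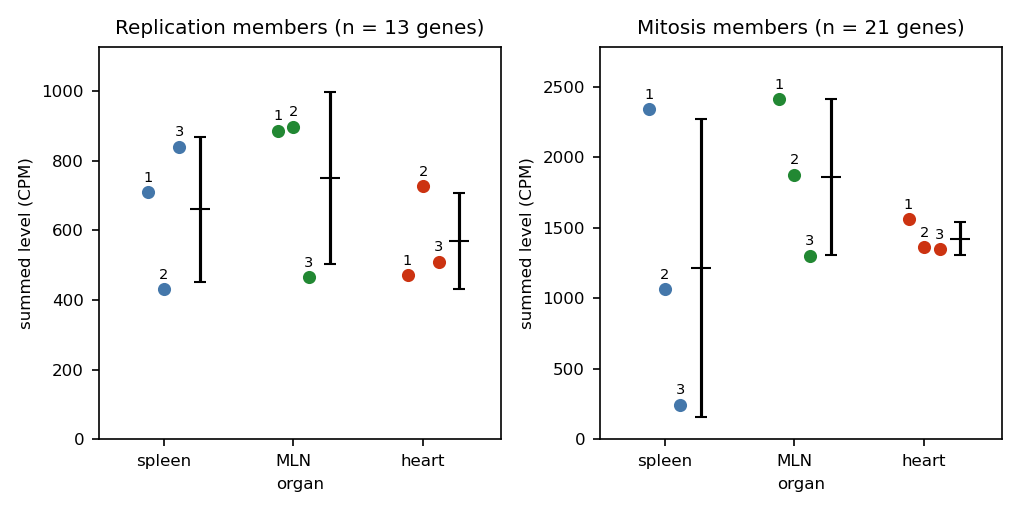
Summed level (y axis, CPM) of the 13 replication members and of the 21 mitosis members in each library, numbered by replicate, by organ (x axis), with the mean and SD of 3 libraries beside them. The mitosis sum is 243 CPM in spleen 3, whose replication sum of 841 CPM is the highest of the spleen.

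The members' spread between libraries was largest in the spleen, where spleen 3 was lowest for 16 of 21 mitosis members. It was not computed without spleen 3, so it is not shown to be a trait of the organ. On the log2(CPM + 1) scale the median SD of a member over the 3 libraries was 1.30 in the spleen, 0.59 in the MLN and 0.60 in the heart. Over all genes tested it was 0.64, 0.45 and 0.70, and over genes in the members' range of levels 0.79, 0.59 and 0.85. The members' median was thus above that of the genes in this range in the spleen, just below it in the MLN and below it in the heart. The range held 12610, 10871 and 9757 of the 16609 genes tested, so these genes were not matched to the members by level. Within the spleen the median SD was 1.38 for mitosis members and 1.01 for replication members.

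Per kilobase of exon, Ccnb2 had the highest level of all members in each organ, and E2f1 and Kif20a were among the lowest. The level per length of Ccnb2, a B-type cyclin, was 157 ± 142, 262 ± 127 and 148 ± 60.0 CPM per kb in the spleen, MLN and heart (SD, n = 3 each). Stmn1 was at 61.4 ± 39.3, 163 ± 59.7 and 124 ± 38.0 CPM per kb, and Pcna was at 49.3 ± 26.4, 77.5 ± 32.6 and 50.9 ± 18.4 CPM per kb. Ube2c and Birc5 or Nusap1 completed the 5 highest in each organ. At the other end, Cenpf was at 0.91 to 1.25 CPM per kb and E2f1 at 0.11 to 1.14 CPM per kb. Of the 33 neighbours in the order of levels per length, 0 in the spleen, 5 in the MLN and 1 in the heart (Stmn1 above Pcna) lay further apart than the larger of their SDs.

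Among 166 other genes of the pathway, on 5 lists, Cdkn1a rose in the heart against both lymphoid organs and Lmnb1 rose against the MLN. In the list of replication origin, fork and polymerase genes, 0 of 44 were called in any comparison, with median log2 changes of -0.05, -0.28 and 0.39 in the heart against the spleen, the heart against the MLN and the MLN against the spleen. In the list of kinetochore, spindle and cytokinesis genes 0 of 50 were called (medians 0.16, -0.08 and 0.37), and in that of cell cycle transcription and G1 to S regulators 0 of 31 (medians 0.25, 0.09 and 0.14). In the list of condensin, cohesin and chromatin genes of dividing cells 0, 1 and 0 of 23 were called (medians 0.09, -0.26 and 0.29). In the list of CDK inhibitors and antiproliferative genes 1, 1 and 0 of the 17 tested of 18 were called (medians 0.08, -0.06 and 0.03). All these calls were for higher levels in the heart, where 0.614% (against the spleen) and 1.1% (against the MLN) of all genes were called.

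Cdkn1a was at 12.6, 22.7 and 14.1 CPM in spleen 1, 2 and 3, at 28.1, 16.1 and 12.1 CPM in MLN 1, 2 and 3, and at 228, 385 and 221 CPM in heart 1, 2 and 3. Cdkn1a (ENSMUSG00000023067, chromosome 17, 29090976 to 29100727, mm10) encodes p21, an inhibitor of cyclin-dependent kinases that also binds Pcna, and it rose in the heart. The log2 change was 4.08 against the spleen (SE 0.50, 16.9-fold, edgeR adjusted p = 0.0238) and 3.89 against the MLN (SE 0.50, 14.8-fold, edgeR adjusted p = 0.0193), and the groups did not overlap. Of the 6 fits that each left out 1 library of the comparison, the call against the spleen held in 0 (adjusted p = 0.0537 to 0.0995, edgeR) and that against the MLN in 1, without heart 2 (0.0471 to 0.0785), while the log2 change stayed at 3.77 to 4.40 and 3.58 to 4.30. Without spleen 3, MLN 3 and heart 2 together the log2 changes were 3.68 and 3.36 and neither was called (adjusted p = 0.125 and 0.121, edgeR). In the same heart libraries the macrophage and fibroblast marker sums were 6820 to 12805 and 2669 to 21324 CPM, with none of the 15 and 10 markers at 0, against 341 to 2709 and 1.15 to 16.4 CPM in the lymphoid organs. Their part in the level of Cdkn1a was not tested.

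The levels of Lmnb1 were 39.5, 43.4 and 78 CPM in the 3 spleen libraries in order, 53.1, 48.5 and 37.1 CPM in the MLN libraries and 175, 448 and 288 CPM in the heart libraries. Lmnb1 (ENSMUSG00000024590, chromosome 18, 56707813 to 56753424) encodes lamin B1 of the nuclear envelope, and it rose in the heart against the MLN (log2 change 2.72, SE 0.47, edgeR adjusted p = 0.0388), a call that held in 0 of the 6 fits that left out 1 heart or MLN library (adjusted p = 0.0630 to 0.129, log2 change 2.32 to 2.99). Against the spleen its log2 change was 2.50 (SE 0.46, edgeR adjusted p = 0.0564). The condensin subunit Smc4, which did not pass the test, was at 743, 564 and 640 CPM in the spleen libraries, 844, 844 and 885 CPM in the MLN libraries and 144, 288 and 312 CPM in the heart libraries. Its groups did not overlap between the heart and either lymphoid organ, in the direction opposite to Lmnb1 (log2 change -1.39 against the spleen, edgeR adjusted p = 0.110).

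The genes that follow had the smallest p-values on the lists with no call. The clamp loader subunit Rfc2 was at 65.4 to 81.1, 63.2 to 87.7 and 25.6 to 45.3 CPM in spleen, MLN and heart. Its log2 change in the heart was -1.14 against the spleen and -1.17 against the MLN (edgeR adjusted p = 0.169 and 0.142). Another clamp loader subunit, Rfc3, was lower than in every MLN library (log2 change -1.28, edgeR adjusted p = 0.161), whereas the polymerase subunit Pola1 lay above the spleen (log2 change 1.14, adjusted p = 0.282, edgeR). Of the kinetochore, spindle and cytokinesis list, Cenpn, a subunit of the centromere complex, was at 2.59 to 9.21 CPM in spleen and 7.45 to 29.9 CPM in heart libraries (log2 change 1.66, edgeR adjusted p = 0.400), and Cit, the citron kinase of cytokinesis, was at 0.778 to 11.6 and 11.3 to 37.1 CPM (log2 change 2.22, edgeR adjusted p = 0.443). Of the same list, Cep55, a scaffold of cytokinesis, was at 32.8 to 49.2 CPM in the MLN and 1.56 to 10.2 CPM in the heart (log2 change -2.74, edgeR adjusted p = 0.292). Myc, a transcription factor that drives cell growth, was at 23.2 to 82.7 CPM in spleen and 8.17 to 14.9 CPM in heart libraries (log2 change -1.94, edgeR adjusted p = 0.172). The D cyclin Ccnd3, which starts the passage to S phase, was at 78.4 to 104.5 CPM in spleen and 35.1 to 60.0 CPM in heart libraries (log2 change -0.94, edgeR adjusted p = 0.363). None of these genes passed the test.

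Several members share bases with other genes, and the strand setting of the counting is not given in the sources used here. Exons of 10 members overlapped those of another gene, over more than 10% of their length for Mcm7 (12.6%), Ccna2 (12.5%), Ube2c (22.8%) and Kif20a (29.3%), so their counts are less certain. Processed copies drew few reads: the pseudogene Pcna-ps2 had 0.988% of the counts of Pcna, Ccnb1-ps 0.609% of those of Ccnb1 and Ccnb2-ps 0.0153% of those of Ccnb2.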

How the data were processed

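RNA sequencing of 9 libraries of sorted Tregs was analysed. The authors deposited 1 table of raw counts per gene, not normalized, and all 9 columns were used. Per the submitters' processing notes, the tools were HISAT2, HTSeq 0.6.0 and CASAVA 1.8.2, on mm10. Whether counting used strand, and which gene models, is not given in the sources used here. Groups are the labels' organs. The members and gene lists were chosen with earlier results of these data known.

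EdgeR 4.0.16 under R 4.3.3 tested the counts: genes were kept by filterByExpr (minimum count 10, minimum total 15), which left 16609, scaled by TMM, and fitted in 1 quasi-likelihood model of all 9 libraries by organ (6 residual degrees of freedom). Tests were two-sided, adjusted by Benjamini-Hochberg over all genes, and called below 0.05. The standard error comes from the F statistic. Totals were 156194012 to 267520538 counts. The median biological coefficient of variation was 101.5%, so the number of libraries and not the depth limits precision. Libraries of an organ differed beyond sampling noise, and each counts as 1 sample. The fit was tested on simulated counts, where some genes were changed in the heart. For heart against spleen it called 0% of genes changed by a log2 of 2 in either direction. It called 15.3% of those changed by 4 and 44.1% of those changed by 8, with 3 false calls. Most changes of these sizes were thus missed.

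Exon lengths and coordinates come from GENCODE vM21 on GRCm38, the assembly of mm10, and promoter windows from RefSeq. All 34 members could be named. From each pathway list up to 3 called genes per comparison could be named or, with none called, the 2 with the smallest p-value, and from lists of cell markers the most abundant genes. Naming Foxp3 was outside this rule and was chosen after its values were seen. The 19 alternatives included DESeq2 1.42.0, voom of limma 3.58.1, other scalings and filters, a replicate block and leaving out libraries.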

Additional observations from a re-analysis of the deposited data

How the results depend on the processing

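No member was called in any of the 19 alternatives, apart from Bub1b with DESeq2 (1 member in the heart against the spleen and 1 in the MLN against the spleen). Members' log2 changes, none of them called in the deposited counts by edgeR with all libraries, had another sign than reported in 63, 40 and 44 of 645 values in the heart against the spleen, the heart against the MLN and the MLN against the spleen. At least 1 alternative turned the sign for 24, 16 and 18 of the 34 members in the same order. The 645 values include fits that left out a library of the organ not compared, which hardly moved the members' median. Leaving out 1 library at a time, the median over members ranged from -0.08 to 0.91, from -0.64 to -0.09 and from 0.31 to 1.15. It was -0.89 in the heart against the MLN without spleen 3, MLN 3 and heart 2, and the summed level in the heart was 1799 CPM scaled to library totals alone. Counts of all genes called depended on the tool. In the heart against the spleen there were 1885 with DESeq2, 1141 with limma-voom, 223 with at least 1 CPM in 3 libraries, 292 with both organs fitted alone, 3 without the 3 libraries that stood apart and 0 to 122 leaving out 1 library. In the heart against the MLN these were 2199, 1332, 369, 548, 4 and 0 to 249. In the MLN against the spleen DESeq2 called 785 and limma-voom 3. The cause of these differences was not tested, other than that leaving out libraries leaves fewer samples. The labels name no animal or pool, so whether the replicate numbers pair the libraries is not known. Libraries of the same number in 2 organs deviated with correlations of -0.13 to 0.11 over 9 pairs, with 1 over 0.1. For unlike numbers the correlations were -0.14 to 0.24. With 3 libraries per organ and a wide spread, these values cannot show whether libraries of the same number share a source. With the number as a replicate block, 0 genes were called in each comparison, 0 members, and Cdkn1a had an adjusted p of 0.175 and 0.127 (edgeR). At this depth the members with the fewest reads were E2f1 (0 in 3 libraries and 43 in heart 1) and Kif20a (0 in spleen 1 and 4 in spleen 2). Nusap1 had 38 reads in spleen 3, and Uhrf1 had 89 in heart 3. Depth does not show how many RNA molecules entered the low-input cDNA step, so a limit there was not tested.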
